A study of Mus musculus with 2 samples.

Results

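The promoters of the cytosolic ribosomal protein genes were examined for open chromatin in the embryonic mouse heart. The set comprised the autosomal protein-coding genes of the GENCODE M21 annotation whose symbol starts with Rpl or Rps and a digit, together with *Rplp0*, *Rplp1*, *Rplp2* and *Rpsa*, without the *Rps6k* kinases and symbols holding -ps. These were 82 of 20722 autosomal protein-coding genes with a protein-coding transcript, of which 43 encode large subunit proteins, 30 encode small subunit proteins, 8 are paralogs or retrocopies, and *Rps19bp1* encodes a protein that binds RPS19. The rule used symbols and positions only, and no measured value. X-linked ribosomal protein genes, 4 in number, were outside it.

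Open chromatin was mapped by ATAC-seq, in which the Tn5 transposase inserts sequencing adaptors into accessible DNA. Wildtype (WT) hearts of the FVB strain were taken at E11.5, pooled in pairs, and profiled in 2 replicates that form a single group, so no condition was compared. Each replicate therefore mixes 2 embryos and all cell types of the heart, and a height cannot tell how open a promoter is in each cell from how many cells have it open. The labels do not say whether the pairs came from separate litters. A peak is a stretch in which read coverage exceeds the genome-wide background, and its height is given here as the fold enrichment over that background at its summit.

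A ribosome consists of a small subunit, which reads the mRNA, and a large subunit, which forms the peptide bonds. Nearly every ribosomal protein is present in a single copy per ribosome, so the cell has to make these proteins in matched amounts, and their genes are transcribed at high rates in nearly all cells. Transcription of most of these genes begins at a C followed by a run of pyrimidines, the terminal oligopyrimidine (TOP) motif, through which mTOR signalling controls translation of the mRNAs. Their single-exon pseudogenes are abundant in mammalian genomes.

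Both lists were of like size, with 118027 peaks in replicate 1 and 114783 in replicate 2. The background was 2.68 reads deep in replicate 1 and 2.98 in replicate 2, as recovered from the steps between the listed values, so that 1 read at a summit was worth 0.272 and 0.251 units of height. The median member had 94 and 107 reads over its summit, and the intervals below are exact 95% Poisson intervals on these reads, which cover counting error only. All 8 cardiomyocyte markers examined, among them *Tnnt2*, *Actc1* and *Nkx2-5*, had a peak shared by both replicates at the start, as did the 4 endothelial, 4 epicardial and 3 autosomal blood markers, whereas *Alb*, *Afp*, *Krt5*, *Krt14* and *Myog* had none. *Tubb3* and *Myod1* also had a shared peak, so a promoter peak by itself did not mark the cell type. Peak numbers skip 1726 values in list 1 and 1803 in list 2, and 1265 starts within 1 kb of such a stretch, those of *Rps25*, *Rps19bp1* and *Rpl30* among them, were not analysed here.

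The pyrimidine run was present at a minority of the annotated starts. A C at the annotated start followed by at least 4 pyrimidines occurred in 9 of 82 members (11.0%), against 2.28% of all 20722 starts. The runs of these 9 were 6 to 19 bases long with a median of 11. The starts of 3 of them follow, each with 40 bases before and 20 bases from the annotated start (GRCm38), the pyrimidine run in capitals.
*Rpl37* (chr15:5116605-5116664, plus strand): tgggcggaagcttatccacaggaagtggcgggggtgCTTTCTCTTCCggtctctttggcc
*Rps21* (chr2:180257337-180257396, plus strand): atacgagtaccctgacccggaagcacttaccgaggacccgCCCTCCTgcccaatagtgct
*Rps24* (chr14:24490678-24490737, plus strand): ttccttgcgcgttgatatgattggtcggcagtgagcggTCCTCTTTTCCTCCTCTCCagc

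Annotated starts differ between sources, which changes this count. RefSeq promoters (GRCm38.p6) matched 62 of the 82 members by symbol, and the RefSeq start was the same base as the GENCODE start in 15 and within 10 bases in 23. In 39 genes it lay downstream and in 8 upstream, with a median absolute offset of 24 bp over all 62. At RefSeq starts the run was present in 14 of 62 members (22.6%), against 2.73% of the 15695 genes matched. Among the same 62 members the GENCODE start gave it in 6. The following runs begin at or around RefSeq starts, and include *Rpl15*, *Rpl35* and *Rplp2*, whose GENCODE starts lack the run. The run of *Rps6*, the substrate of the S6 kinases, likewise appeared only with the RefSeq start.
*Rpl15* (chr14:18270967-18271026, minus strand): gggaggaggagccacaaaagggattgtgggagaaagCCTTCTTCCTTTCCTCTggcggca
*Rpl35* (chr2:39005112-39005171, minus strand): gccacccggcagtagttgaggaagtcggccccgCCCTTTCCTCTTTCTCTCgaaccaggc
*Rplp2* (chr7:141447611-141447670, plus strand): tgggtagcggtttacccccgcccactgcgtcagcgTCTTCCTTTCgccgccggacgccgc
*Rps6* (chr4:86857348-86857407, minus strand): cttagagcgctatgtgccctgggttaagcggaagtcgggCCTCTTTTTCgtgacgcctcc
*Rpl38* (chr11:114668540-114668599, plus strand): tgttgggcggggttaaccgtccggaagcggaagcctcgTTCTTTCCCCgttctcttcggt

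By either annotation 21 members carried the run at a start, although only 62 members had a RefSeq start. The matching share of all genes was not taken, so this count has no background to compare with. When the C was allowed within 10 bases of the GENCODE start, 37 members (45.1%) had it, beside 31.1% of all starts, so that the looser definition separated the genes less. Of the 9 members with a run at the GENCODE start, 6 encode large subunit proteins, 2 encode small subunit proteins, and the remaining gene was the retrocopy *Rps27rt*.

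A second element was the palindrome core TCTCGCG, known from housekeeping promoters. It was found on either strand, in the 250 bases before to 50 bases after the start, in 17 members (20.7%), against 3.44% of all promoters and 7.17% of CpG-rich promoters. The latter are the 8428 promoters with a GC content of at least 55% and a ratio of observed to expected CpG of at least 0.6, and hold 43 of the members. The full palindrome, in which the core overlaps its own reverse complement, was present in 7 members (8.54%), 0.603% of all promoters and 1.19% of CpG-rich ones. The windows below show the element in capitals with up to 15 bases on each side, for named members that differ in peak height.
*Rps19* (chr7:24884135-24884171, plus strand): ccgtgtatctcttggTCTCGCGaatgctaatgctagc
*Rps6* (chr4:86857397-86857433, minus strand): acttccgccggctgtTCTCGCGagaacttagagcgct
*Rpl10a* (chr17:28328519-28328555, plus strand): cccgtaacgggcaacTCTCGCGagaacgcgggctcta
*Rps2* (chr17:24720045-24720081, plus strand): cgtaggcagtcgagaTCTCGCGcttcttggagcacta
*Rpl4* (chr9:64173125-64173153, plus strand): agataatTCTCGCGagagttgtgacgagt

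Among 16 members with a match outside chromosome 18, 12 held one within 100 bases before the start. In *Rps19* and *Rpl4* the first base was at -221 and -243, counted from the start as base 0. Members with the element and a peak, 17 in number, had a median height of 25.2 and the 58 without it had 26.5, so its presence went with no higher peak.

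Other motifs were counted the same way as exact matches on both strands. The ETS core CCGGAAG occurred in 26 members (31.7%) against 11.4% of all promoters and 19.2% of CpG-rich promoters. ACTACA, part of the ZNF143 motif, occurred in 21 members (25.6%) against 10.8% and 7.93%. The YY1 core AAGATGGC was found in 6 members (7.32%), against 3.10% and 4.75%. Related gene lists held these motifs too. The ETS core stood at 37.2% in mitochondrial ribosomal protein genes and 37.5% in genes for rRNA synthesis and ribosome assembly. It stood at 29.2% in translation factors and 17.4% in genes of the respiratory chain and ATP synthase. In the same order, the YY1 core stood at 14.1%, 6.25%, 4.62% and 10.9%, and ACTACA at 16.7%, 15.6%, 15.4% and 15.2%.

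The GC box GGGCGG, bound by SP and KLF factors, was present in 41 members (50.0%), near the 46.2% of all promoters and below the 80.1% of CpG-rich ones. CCAAT was found in 24 members (29.3%), against 38.2% and 35.7%. TATAAA was found in 9 members (11.0%), against 12.7% of all promoters, 3.95% of CpG-rich promoters and 6.98% of promoters with a shared peak. A GC box went with a taller peak, with a median height of 28.8 in the 38 members with it and 23.3 in the 37 without it. It was present in 60.5% of CpG-rich members and 38.5% of the other members. Members with ACTACA or CCAAT were also taller, at 29.3 against 25.7 and 28.4 against 24.9. Those with the ETS core, the YY1 core or TATAAA were lower, at 25.7 against 26.8, 23.3 against 26.7 and 24.0 against 26.7. These matches describe letters in a window and not binding.

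**Figure D1:**
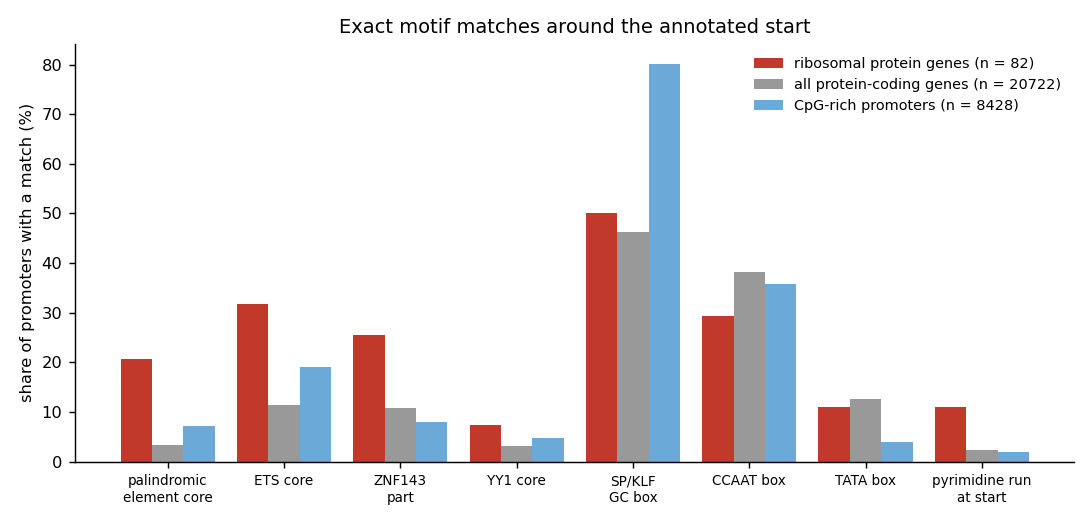
Share of promoters (%) with an exact match to each motif in the 250 bases before to 50 after the annotated start, and with a pyrimidine run at the start, for the 82 ribosomal protein genes (red), all 20722 protein-coding genes (grey) and the 8428 CpG-rich promoters (blue). The palindrome core stood at 20.7% in the members and 3.44% in all genes, whereas the GC box stood at 50.0% and 46.2%.

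In base composition the members were close to other genes and their CpG content was higher. Median GC content of this window was 55.8% in the members and 56.3% in all promoters, and the median CpG ratio was 0.853 against 0.573. Of the small subunit genes 21 of 30 (70.0%) were CpG-rich, of the large subunit genes 18 of 43 (41.9%), and of all promoters 40.7%.

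Nearly all members had open chromatin at the start. A peak of replicate 1 within 1 kb of the start overlapped a peak of replicate 2 in 75 of the 79 members analysed (94.9%), against 68.4% of the 19457 starts analysed. This included every canonical subunit gene analysed, 42 of the large and 29 of the small subunit. The share was 97.7% over CpG-rich promoters, 100% over 75 mitochondrial ribosomal protein genes, 96.6% over 59 translation factors and 96.6% over 89 genes of the respiratory chain and ATP synthase. A peak at the start was thus shared with other housekeeping groups.

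Of the members analysed, 4 had no listed peak in either replicate, and these were all paralogs. *Rpl3l* (start chr17:24727820) encodes a form of RPL3 found in striated muscle. *Rpl10l* (chr12:66284401) and *Rpl39l* (chr16:10170228) are known from the testis, where they stand in for X-linked genes. *Rps27rt* (chr9:114982739) is a retrocopy of *Rps27*. *Rpl3l* had a CpG ratio of 0.0893 in its promoter, and the sequences around the starts of the first 3 genes are given without capitals, as none held a run at the start.
*Rpl3l* (chr17:24727780-24727839, plus strand): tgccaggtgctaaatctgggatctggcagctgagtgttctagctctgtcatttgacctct
*Rpl10l* (chr12:66284382-66284441, minus strand): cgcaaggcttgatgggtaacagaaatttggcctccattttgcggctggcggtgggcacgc
*Rpl39l* (chr16:10170188-10170247, plus strand): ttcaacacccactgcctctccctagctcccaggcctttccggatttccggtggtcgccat

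Repeated sequence could hide a peak at some of these genes, because the authors discarded reads of low mapping quality. The share of 32-base words within 500 bp of the start that occur once in the genome was 59.0% at *Rps27rt* and 74.4% at *Rpl10l*, but 99.8% at *Rpl3l* and 100% at *Rpl39l*. The part of repeats in the missing peaks was not tested.

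The other 4 paralogs had peaks of differing height. *Rpl36al*, a copy of the X-linked *Rpl36a*, reached 39.9 and 37.5 in replicates 1 and 2. Its peak also held the start of *Mgat2*, 74 bp away on the other strand. *Rpl22l1*, the paralog of *Rpl22*, reached 34.8 and 33.4. *Rps27l* stood at 25.8 and 27.7. *Rpl7l1*, which takes part in making the large subunit, stood at 16.6 and 15.8, among the 5 lowest of all members in both replicates. The tallest of these, *Rpl36al*, ranked 9 of 75 members by the mean of both replicates.

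Across the 75 members the median height was 25.8 in replicate 1 and 27.2 in replicate 2, while that of all 13307 promoters with a shared peak was 24.4 and 24.6. The median member stood at the 54.2 and 57.3 percentile of those promoters. The lowest and highest members stood at 9.51 and 53.0 in replicate 1, and at 10.6 and 51.5 in replicate 2. Of the members 42 were above the median of all promoters in both replicates, 30 were below it in both and 3 changed side. The members therefore lay near the middle of the range and not at its top.

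The members differed from promoters at large mainly in the scarcity of low peaks. A height below the 25th percentile of all promoters in both replicates was seen for 1 member of 75 (1.33%), *Rpl4*, against 22.9% of promoters with a shared peak. A height above the 75th percentile in both was seen for 15 of 75 members, against 22.4%. The SD of log2 height was 0.47 and 0.43 over members and 0.91 and 0.96 over all promoters. It was as small or nearly so in some related lists, at 0.47 and 0.42 for rRNA synthesis and ribosome assembly and 0.53 and 0.49 for the mitochondrial ribosomal proteins. It was larger in others, at 0.58 and 0.58 for translation factors and 0.61 and 0.60 for respiratory chain genes.

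Other housekeeping groups had few low peaks as well. Below the 25th percentile in both replicates were 2 of 75 mitochondrial ribosomal proteins (2.67%), 3 of 57 translation factors (5.26%), 5 of 86 respiratory chain genes (5.81%) and 12.7% of CpG-rich promoters. Median heights in replicates 1 and 2 were 24.4 and 25.4 for the mitochondrial ribosomal proteins. Those of the translation factors were 28.5 and 30.2. Those of the respiratory chain genes were 26.8 and 27.7. Those of 31 genes for rRNA synthesis and ribosome assembly were 26.9 in both. The cytosolic ribosomal proteins lay between these lists, and differences among the lists were not tested.

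**Figure D2:**
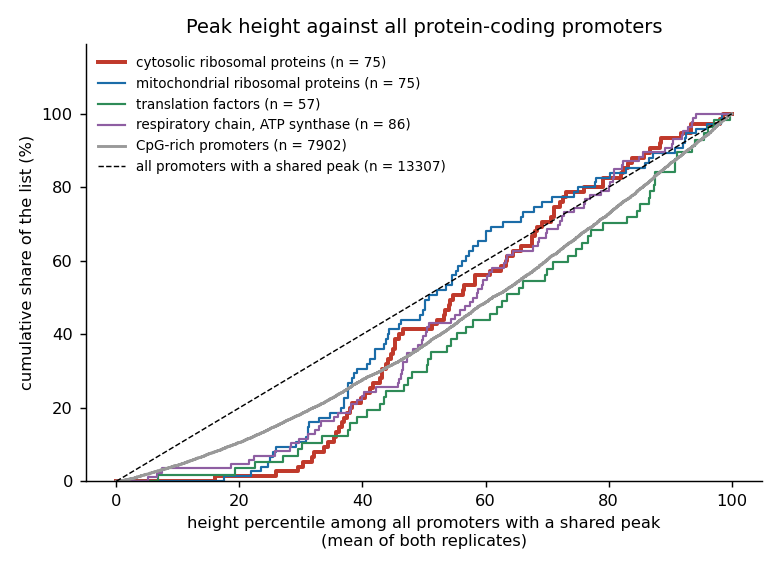
Cumulative share (%) of each list against the height percentile among all 13307 promoters with a shared peak, as the mean of both replicates; the dashed diagonal is what all promoters give. The curve of the 75 ribosomal protein genes (red) stays near 0 up to the 25th percentile, below which a single member lies, and approaches the diagonal toward the upper end.

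CpG-rich members were taller than the rest. The 41 CpG-rich members with a peak had median heights of 28.5 and 29.9, close to the 28.5 and 28.9 of all CpG-rich promoters. The 34 others had 22.5 and 23.4. Across the 75 members the Spearman correlation of mean height with GC content was 0.40 and with the CpG ratio 0.08, against 0.24 and 0.40 across all promoters with a shared peak. These points share the same libraries, and no test was made.

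By the mean of both replicates, the tallest peaks belonged to *Rpl15*, *Rpl37*, *Rpl27a*, *Rps21* and *Rps19*. *Rpl15*, which encodes a large subunit protein, stood at 52.4 (interval 45.3 to 60.3) and 51.5. *Rpl37*, also of the large subunit, stood at 53.0 (45.8 to 60.9) and 49.0. Both lay near the top of all promoters, at the 98.3 and 98.7 percentile for *Rpl15* and 98.5 and 97.6 for *Rpl37*. *Rpl27a* stood at 47.5 and 41.7. *Rps21* stood at 44.0 and 44.5. *Rps19*, the gene most often mutated in Diamond-Blackfan anaemia, stood at 44.5 and 41.2, and was the tallest after *Rps21* among the small subunit genes by the mean of both replicates.

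By the same mean, the lowest peaks belonged to *Rpl4*, *Rpl6*, *Rpl7l1*, *Rpl19* and *Rpl24*. The small subunit gene *Rps15* was next, at 17.4 and 17.6, level with *Rpl19* and *Rpl24* in replicate 2, and *Rpl35a* was lower than *Rpl24* in replicate 1, at 16.8. *Rpl4*, whose protein lines the exit tunnel of the nascent peptide, stood at 9.51 (6.67 to 13.2) and 10.6. *Rpl6* stood at 13.9 and 15.3. *Rpl19* stood at 15.8 and 17.6. *Rpl24*, the gene of the Belly spot and tail mutant mouse, stood at 17.1 and 17.6. *Rpl4* was the lowest in both replicates, but its interval overlapped others. In replicate 1 it overlapped those of *Rpl6*, from 10.4 to 18.2, *Rpl7l1* and *Rpl19*, and ended just below that of *Rpl24*. In replicate 2 the interval of *Rpl4* overlapped those of all the other 4.

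**Figure D3:**
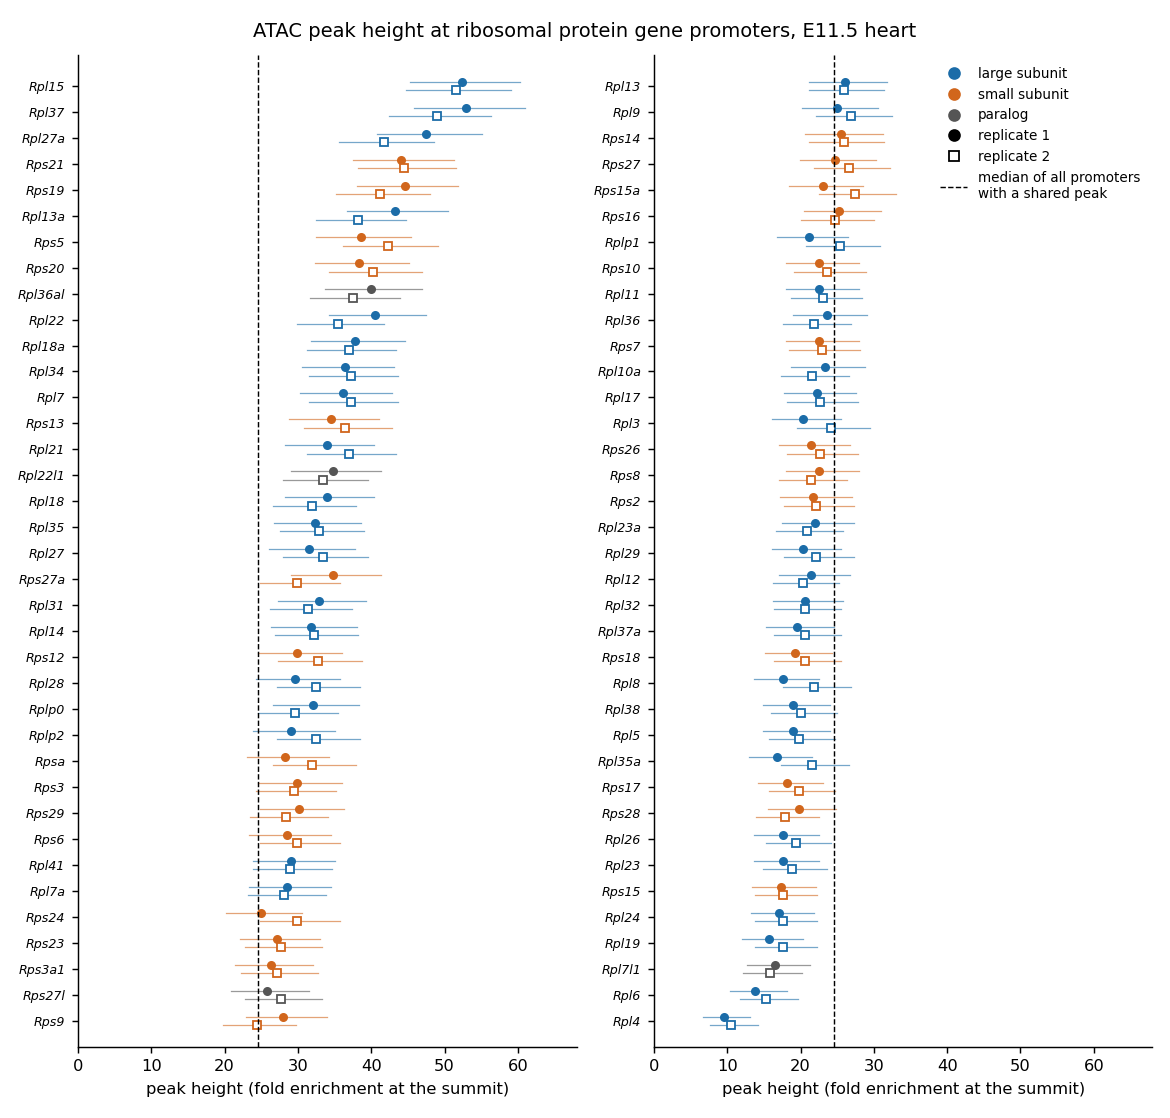
Peak height (fold enrichment at the summit) of 74 of the 75 ribosomal protein genes with a shared peak, ordered by the mean of replicate 1 (filled circles) and replicate 2 (open squares), with exact 95% Poisson intervals on the summit reads as lines and the median of all promoters dashed. Colours mark large subunit genes (blue), small subunit genes (orange) and paralogs (grey); *Rpl15* and *Rpl37* sit near 50 and *Rpl4* near 10.

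By subunit the heights overlapped over most of their range. Large subunit genes had medians of 24.3 and 25.6 and ran from 9.51 to 53.0 in replicate 1, and small subunit genes had medians of 26.4 and 27.4 and ran from 17.4 to 44.5. The small subunit genes were less scattered, with an SD of log2 height of 0.36 in both replicates against 0.54 and 0.47. No small subunit gene was below the 25th percentile in both replicates.

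The stalk of the large subunit, where translation factors bind, is built from RPLP0, RPLP1 and RPLP2. *Rplp0* stood at 32.1 and 29.7. *Rplp2* stood at 29.1 and 32.4. *Rplp1* stood at 21.2 and 25.4, and its interval of 16.8 to 26.4 in replicate 1 overlapped that of *Rplp2*, which reached from 23.8 to 35.1. The order of the 3 genes differed between replicates for *Rplp0* and *Rplp2*, and *Rplp1* was the lowest in both.

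Genes with known roles outside or beside protein synthesis were spread over the range. *Rpl5* and *Rpl11*, whose proteins bind MDM2 when free of the ribosome, stood at 19.0 and 19.9 and at 22.5 and 23.1. *Rpl38*, needed for translation of a subset of Hox mRNAs, stood at 19.0 and 20.1. *Rpl10a*, likewise linked to selected mRNAs, stood at 23.4 and 21.6. These 4 genes were below the median of all promoters in both replicates.

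*Rpl13a*, whose protein can leave the ribosome to silence inflammatory mRNAs, stood at 43.2 and 38.2. *Rps27a*, which encodes ubiquitin fused to a ribosomal protein, stood at 34.8 and 29.9, in a peak that also holds the start of *Clhc1*. *Rpsa*, also known as the laminin receptor, stood at 28.2 and 31.9. These 3 were above the median in both replicates, as were *Rps3*, a protein at the mRNA entry that also acts in DNA repair, at 29.9 and 29.4, and *Rps6* at 28.5 and 29.9. *Rpl3*, which lies near the peptidyl transferase centre, stood at 20.4 and 24.1 and was below it in both.

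The replicates ranked the members alike. Spearman's correlation of height between replicates was 0.96 over the 75 members and 0.98 over all promoters with a shared peak. Counting intervals of both replicates overlapped for 75 of 75 members. The log2 ratio of replicate 2 to replicate 1 had an SD of 0.12 over members, 0.12 over mitochondrial ribosomal proteins and 0.21 over all promoters. It was largest for *Rpl35a*, with heights of 16.8 and 21.6 (log2 ratio 0.36), *Rpl8* with 17.7 and 21.9, and *Rplp1* as given above. Replicate 2 was higher in 47 of 75 members (62.7%), against 43.0% of all promoters with a shared peak.

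Widths of the members were ordinary. The median peak was 1376 bp wide in replicate 1 and 1472 bp in replicate 2, against 1429 and 1497 bp for all promoters, and the 25th and 75th percentiles of the members in replicate 1 were 1221 and 1652 bp, against 1017 and 1927 bp. Taller peaks were wider, with a Spearman correlation of 0.56 over members and 0.63 over all promoters. Width ends where coverage falls to the caller's limit, so it depends on height and on depth. The shortest listed peak, of 200 bp, and the largest listed p-value do not match the read extension and p limit in the study's methods, so the exact limit behind these widths is not known.

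*Rpl7* had the widest peak, of 3423 and 3650 bp. *Rpl15* followed with 2521 and 2869 bp and *Rpl27a* with 2652 and 2660 bp. By the mean of both replicates the narrowest were those of *Rps28* with 621 and 657 bp, *Rps2* with 700 and 681 bp, and *Rpl4* with 1123 and 637 bp. *Rps28* and *Rps2* were nearly as narrow in both replicates, whereas the width of *Rpl4* depended on how its peak was divided in replicate 2. At *Rps28* a second peak was listed beside the main peak in both replicates. It was 635 and 442 bp wide, with summits 773 and 755 bp after the start.

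**Figure D4:**
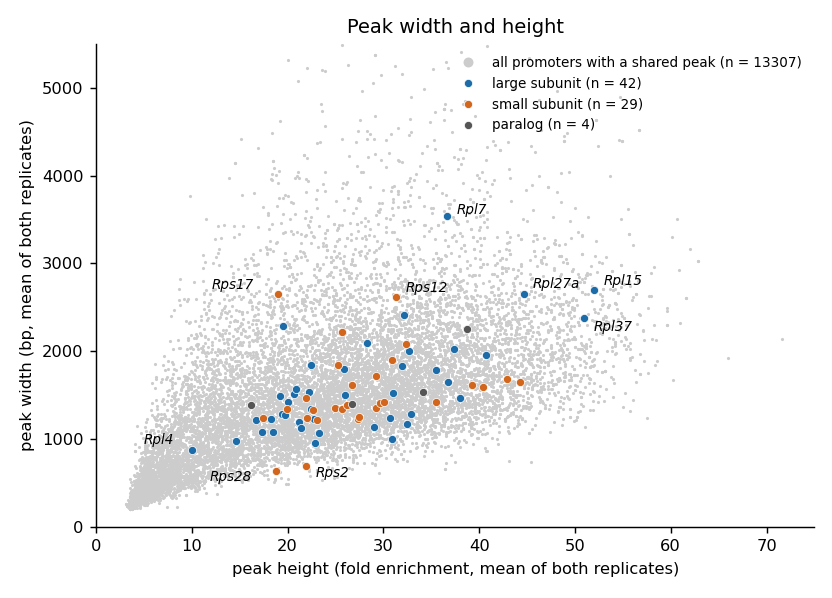
Peak width (bp) against peak height (fold enrichment), each the mean of both replicates, for all 13307 promoters with a shared peak (grey) and the ribosomal protein genes by kind (colours). Members fill the middle of the cloud, with *Rpl7* widest and *Rps28* narrowest, and 18 promoters wider than 5500 bp lie outside the plot.

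Summits of the members lay close to the annotated start. The 25th and 75th percentiles of the summit position were -83.5 and 63 bp in replicate 1 and -71.5 and 70 bp in replicate 2, where negative values are before the start. For all promoters they were -107 and 94 bp, and -109 and 98 bp. The median positions were -1 and 5 bp in the members and 2 and 7 bp in all promoters. Summits therefore centred on the start in both, with less scatter in the members.

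A summit within 100 bp of the start in both replicates was found in 46 of 75 members (61.3%), against 41.1% of all promoters with a shared peak. It was found in 45 of 75 mitochondrial ribosomal proteins, 40.4% of translation factors, 48.8% of respiratory chain genes and 46.5% of CpG-rich promoters. Small subunit genes had such a summit in 21 of 29 (72.4%) and large subunit genes in 23 of 42 (54.8%). In the annotation of the main transcript, 38 summits of replicate 1 lay before the start, 26 in the first exon and 11 in the first intron. In replicate 2 these were 35, 26 and 14.

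CpG-rich members had summits further upstream. Their median positions were -61 and -39 bp, and those of the other members 63 and 57.5 bp. Over all promoters with a shared peak the medians were -33 and -32 bp for those that were CpG-rich and 60 and 65 bp for the others. Both summits of a member lay within 50 bp of each other in 64 of 75 genes, with a median gap of 16 bp, and the largest gap was the 191 bp of *Rpl4*.

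**Figure D5:**
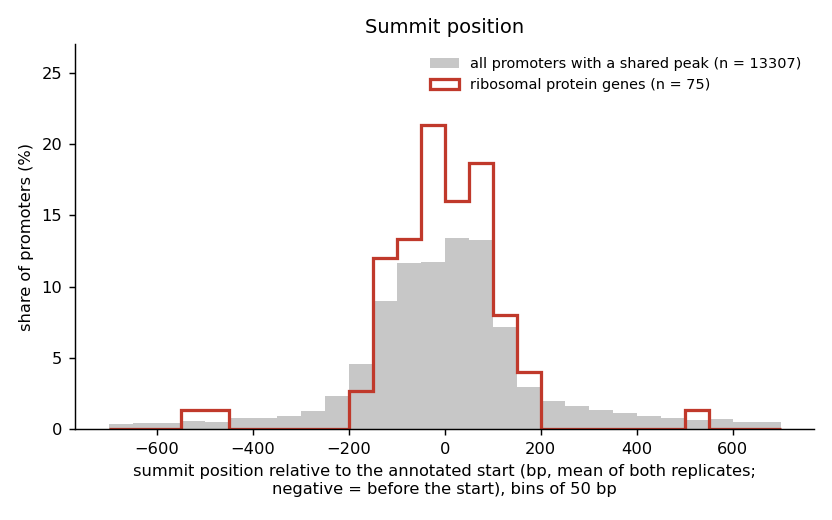
Share of promoters (%) by summit position relative to the annotated start, as the mean of both replicates in bins of 50 bp, for all promoters with a shared peak (grey) and the 75 ribosomal protein genes (red line). The members fall within 200 bp of the start except for 3, and 7.45% of all promoters lie beyond the 700 bp shown.

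The 3 members with summits more than 200 bp away in both replicates were *Rpl35*, *Rpl4* and *Rpl7*. At *Rpl35*, whose protein sits by the exit of the peptide tunnel, the summits lay 541 and 514 bp downstream of the GENCODE start (chr2:39005624) but 48 and 21 bp from the RefSeq start, which is 493 bp downstream and carries the pyrimidine run printed above. At *Rpl7* they lay at -444 and -476 bp from the start (chr1:16104662), in a peak that also spans the start of *Rdh10*.

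At *Rpl4* the summits lay at -429 and -620 bp from the start (chr9:64173375), on the side of *Zwilch*, which starts 271 bp away on the other strand. Replicate 2 had a pair of peaks there, with a height of 10.6 at -620 bp and of 9.05 at 66 bp. The start of *Rpl4* was inside its highest peak in replicate 1 and outside it in replicate 2, and in the other 74 members the start was inside the peak in both.

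A protein-coding gene started within 1 kb upstream on the other strand in 9 members (11.0%), and in 7.14% of all genes. The share was 13.4% over CpG-rich promoters, 26.9% over mitochondrial ribosomal protein genes and 22.8% over respiratory chain genes. It was 18.8% over genes for rRNA synthesis and ribosome assembly and 13.8% over translation factors, so the members were below all of these lists. In the members the neighbour's start was at most 304 bp away, and 10 bp for *Rps28*, next to *Ndufa7* of the respiratory chain. Such pairs included the tall *Rpl15*, 69 bp from *Nkiras1*, and the low *Rpl4*. The 9 had median heights of 21.5 and 21.6, and the 66 with a peak and no such neighbour 26.2 and 27.5. The peaks of 12 members, in both replicates, held another protein-coding start, namely those 9, *Rpl7* with *Rdh10*, *Rps27a* with *Clhc1*, and *Rps10* with the annotated *RPS10-NUDT3*. Apart from *Rpl4* in replicate 2, the peak in these 12 genes cannot be assigned to either start. The replicate 2 peak given for *Rpl4* held the start of *Zwilch* but not that of *Rpl4*.

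Further peaks near the starts were low. In replicate 1, 12 of 75 members had more than a single peak within 1 kb, against 12.8% of all promoters with a shared peak, and in replicate 2 it was 11 members (14.7%), against 13.0%. Besides *Rpl4*, the highest additional peaks were those of *Rpl36* at 10.9 and 10.1, at -1260 and -1268 bp, and *Rps29* at 8.42 and 8.55, at -476 and -465 bp.

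The members' flanks were often not unique in the genome. The median share of 32-base words found once was 96.7% in members and 100% in all promoters, and it was below 90% in 25 members (30.5%), against 15.8% of all genes and 4.81% of CpG-rich promoters. Words were taken at every base in the members but only at every 10th base in other genes, so a short repeat could be missed there. Over all members the median was 96.3% after the start and 100% before it. The share was 59.2% at *Rps29*, 68.7% at *Rpl24* and 69.6% at *Rpl37a*. At *Rps29* the words before the start were the less unique, with 43.6% against 74.8% after it, and at *Rpl24* and *Rpl37a* both sides were affected. These 3 genes had heights of 30.2 and 28.4, of 17.1 and 17.6, and of 19.6 and 20.6. Over the 75 members the Spearman correlation of height with this share was 0.19, and its part in the heights was not tested.

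The pseudogene copies rarely had a peak. Of 249 ribosomal protein pseudogenes with a -ps symbol and a start that could be analysed, 12 had a shared peak within 1 kb (4.82%), against 5.53% of 8445 processed pseudogenes. Their median heights were 5.57 and 5.53. The tallest, *Rpl29-ps2* at 41.8 and 35.4, starts 160 bp from the start of *Akr1e1*, and the next was *Rpl30-ps6* at 14.7 and 15.6.

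The members not analysed because of skipped peak numbers are given for completeness. *Rpl30* had a listed peak of 35.9 and 34.9, with the summit 272 and 265 bp after the start (chr15:34443640). No peak was listed within 1 kb of the starts of the small subunit gene *Rps25* (chr9:44407139) and of *Rps19bp1* (chr15:80264315) in either replicate, and because peak numbers are skipped there, this cannot be read as closed chromatin.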

How the data were processed

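ATAC-seq was performed on 2 replicates, each of 2 pooled WT E11.5 hearts. Per the study's methods and the labels, the authors used Trim Galore 0.6.6 with Cutadapt for trimming and Bowtie2 2.4.2 for mapping to GRCm38 (mm10), filtered out duplicate and poorly mapped reads with SAMtools 1.12, and ran MACS2 on each replicate against a genome-wide background. The deposited lists give the fold enrichment at each summit (a ratio), the −log10 p and −log10 q values, and a score that the authors' caller made from the latter. The lists give no read totals.

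Each gene was represented by the start of its principal GENCODE M21 transcript and by the highest peak overlapping 1 kb on each side; peaks of both replicates sharing at least 1 bp counted as shared. Percentiles were taken among all promoters with a shared peak. The reads over a summit were obtained from the step between listed ratios, after taking off the 1 read that the caller adds. Sequence was read from GRCm38 with NumPy 2.4.6 and Numba 0.67.0, and values were computed with pandas 2.3.3 and SciPy 1.17.1 in Python 3.11.15. Assignment of peaks was tested on simulated data.

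Genes were named by role, as paralogs, for lacking a peak in both replicates, as the 5 highest and 5 lowest, the 3 widest and narrowest, the 3 with the farthest summit and the 3 with the largest replicate ratio. *Rps29*, *Rpl37a*, *Rpl36*, *Rps10*, *Rps15* and the genes shown for their sequences were named after their values were seen. The members, lists and motifs were chosen with earlier results of these data known, so counts are descriptions and no test was made. Some items are not reported here, and 1 member with a shared peak was counted but not drawn in the plot of heights. Alternatives were other starts, windows of 500 bp and 2 kb, summits inside the window, p of at most 0.00001, q of at most 1e-10, reciprocal overlap of 50%, the nearest summit, canonical subunits only and each replicate alone.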

Additional observations from a re-analysis of the deposited data

How the results depend on the processing

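Of the 79 members analysed, 73 to 75 had a peak in both replicates under other starts, windows, limits and overlaps, 75 had one in each replicate alone, and 76 of 82 had one with the starts in skipped stretches kept. The median height of 26.2 was 25.8 to 27.2 with a replicate left out, and the median width of 1424.5 bp was 1376 to 1472 bp. The median summit distance of -12 bp was -1 to 5 bp with a replicate left out, 26 bp with the outermost start of each gene, and -7.5 bp for canonical subunits only. With RefSeq starts, added after seeing the data, it was -23.25 bp over the 56 members that had both, for which GENCODE starts gave -14.5 bp. Its sign thus changed with the setting. The median height percentile of 54.8 was 54.99 to 57.9 with a replicate left out and 51.2 with peaks of q of at most 1e-10. The 9 members with a pyrimidine run became 37 when the C could lie within 10 bases and 14 of 62 with RefSeq starts, where the GENCODE starts of these 62 gave 6. Keeping the starts in skipped stretches, likewise tried after seeing the data, moved no value by more than the spread between replicates. No paired analysis was possible because there is a single group of 2 samples. With 2 pooled pairs of hearts, the spread between embryos was not measured, and the lowest peaks rest on few reads, as the interval of *Rpl4* shows.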
